A study of Mus musculus with 112 samples.

Results

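Polycomb group proteins keep developmental genes silent and work in a pair of complexes. Polycomb repressive complex 2 (PRC2) methylates lysine 27 of histone H3, and its core is a methyltransferase (EZH2 or its homologue EZH1) bound to EED, which reads the finished mark, and to SUZ12, the scaffold. JARID2 and MTF2 are accessory subunits that help to bring PRC2 to CpG-rich DNA. Polycomb repressive complex 1 (PRC1) adds ubiquitin to histone H2A through RNF2 (RING1B), which in one form of the complex is joined by BMI1 (PCGF4) and by a CBX protein that binds methylated lysine 27. CBX7 is the main CBX protein of mouse embryonic stem cells (ESCs), and CBX2 is known for its part in compacting chromatin and for higher levels in differentiating cells. The 10 genes of these proteins (Ezh1, Ezh2, Eed, Suz12, Jarid2, Mtf2, Rnf2, Bmi1, Cbx7 and Cbx2) were taken by symbol from the 25209 genes in the count files, and all 10 were counted in every library.

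The cells were mouse V6.5 ESCs and what grew from them, in 34 groups of 2 to 11 libraries. LSD1 (Kdm1a) is a histone demethylase that sits with the CoREST scaffolds RCOR1 and RCOR2, and MLL4 (Kmt2d) is a methyltransferase that acts at the same enhancers. Naive ESCs, kept in 2i and LIF, were LSD1 knockout (KO, 6 libraries), LSD1 CI (endogenous LSD1 with an inactive catalytic site, 4), RCOR1 KO, RCOR2 KO and RCOR1/2 double knockout (DKO, 4 each), MLL4 KO (2), MLL4/LSD1 DKO and MLL4KO/LSD1CI (4 each) and wild type (WT, 11). Embryoid bodies (EBs), hanging-drop aggregates grown for 6 days, were LSD1 KO (2), LSD1 CI (4), RCOR1 KO (4), RCOR2 KO (2), RCOR1/2 DKO (4) and WT (7). A485, an inhibitor of the acetyltransferases p300 and CBP, or its solvent DMSO was given to LSD1 KO ESCs, EBs, epiblast-like cells (EpiLCs, 2 days with activin A and FGF2) and cells left to differentiate for 4 days in serum without 2i and LIF (2 libraries for each culture and agent). WT cells of the last 3 cultures and LSD1 CI serum cells and EpiLCs received DMSO only (2 each). Doxycycline (DOX) was given or not to ESCs with a DOX-inducible HA-tagged LSD1 on the LSD1 KO background (LSD1Res, 4 and 4) or on the RCOR1/2 DKO background (DKO + LSD1, 4 and 4), and to LSD1 KO ESCs without the transgene (2 and 2). Per the methods of the study the replicates came from 2 independent clones, which the labels do not tell apart. Each library was counted as a replicate, without a term for clone. A p-value therefore measures the spread between libraries of 1 parental line, and the spread between clones was not tested.

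Depth was 17221431 to 58186717 counts per library. Kdm1a was between 3.43 and 6.85 CPM (counts scaled to a library total of 1000000) in LSD1 KO ESCs, against 140.7 to 226 CPM in WT ESCs. Rcor1 and Rcor2 averaged 3.25 and 3.21 CPM in RCOR1/2 DKO ESCs, against 47.4 and 96.2 CPM in WT ESCs. RCOR2 KO EBs kept 49.2 CPM of Rcor2, against 136 CPM in WT EBs, and MLL4 KO ESCs kept 225 CPM of Kmt2d, against 491 CPM in WT ESCs. As a check of the cultures, 8 naive markers summed to 110 to 402 CPM in WT EBs, against 2824 to 3900 CPM in WT ESCs, and all 9 mesoderm and heart markers were called higher in WT EBs. The 101 genes annotated solely on unplaced contigs were at 0 in 9 ESC libraries, namely WT libraries 1 to 3 and the 6 untreated LSD1 KO ones, while every other library had 4241 counts or more on them. These 9 are called the second alignment batch here, and ESC values are given with this batch as a term of the fit where it changes which genes passed or clearly moves a value.

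A gene is said to have risen or fallen where its Benjamini-Hochberg adjusted p from edgeR's quasi-likelihood test across all genes was below 0.01, and to be called where it also changed more than 2-fold. Both shares over all tested genes are given beside the members' counts. Errors of log2 fold changes are standard errors (SE) and errors of levels are SDs. Across the 32 comparisons of 2 groups, Bmi1 passed the test 17 times (11 higher, 6 lower) and was called 9 times, Eed and Mtf2 passed 11 times each and Suz12 10 times. Rnf2, the catalytic subunit of PRC1, passed 3 times and was never called, with log2 fold changes between -0.52 and 0.19, and neither was Ezh2, which lay between -0.72 and 0.59. The map of fold changes shows these differences gene by gene.

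**Figure D1:**
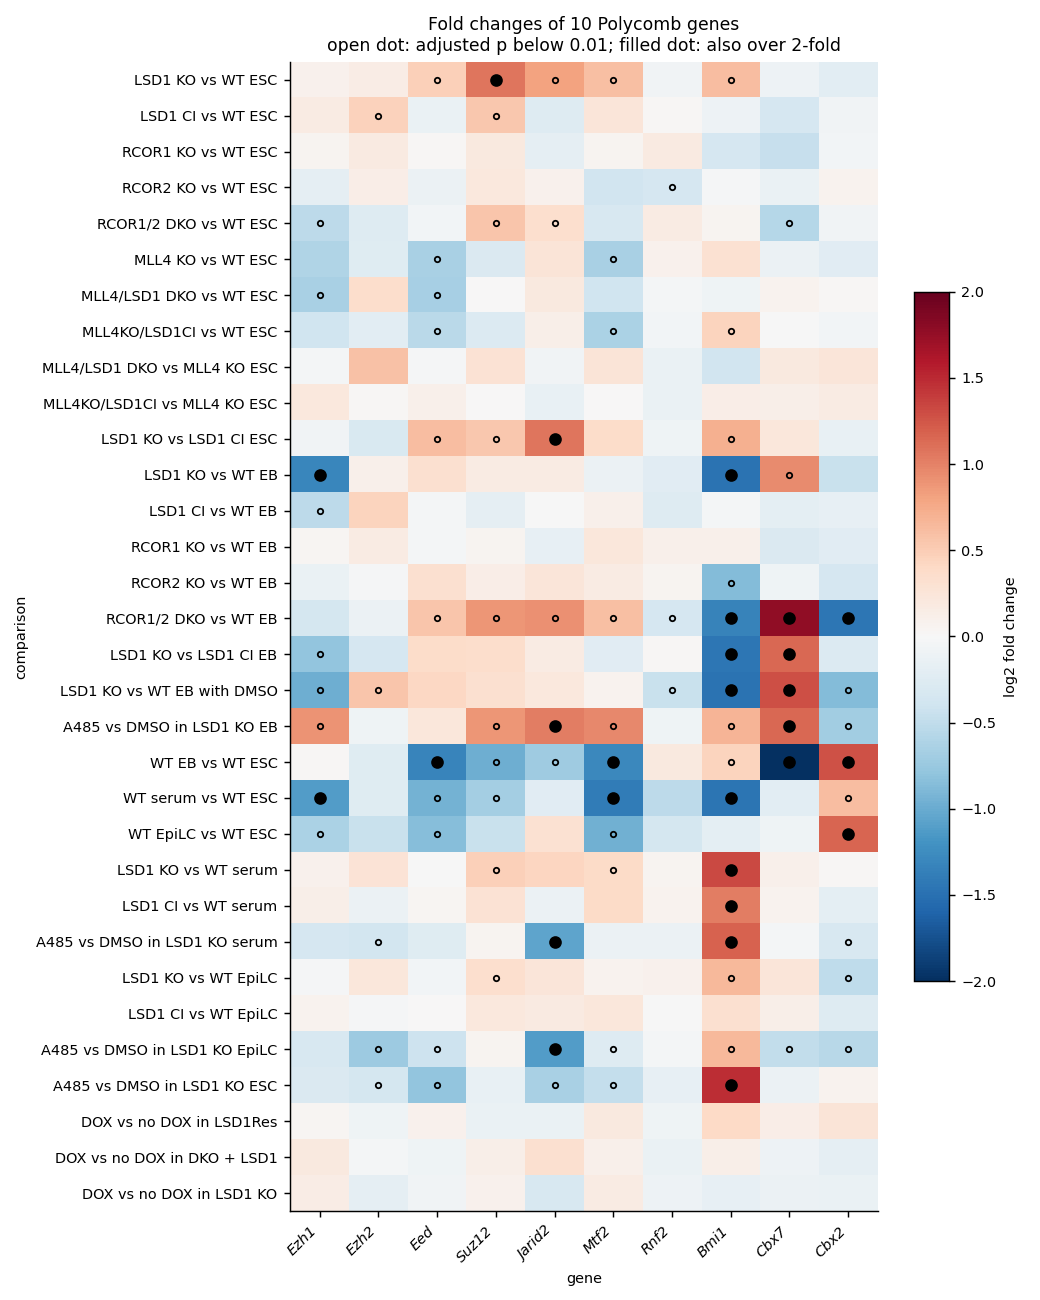
Log2 fold change of the 10 genes (columns) in the 32 comparisons (rows), on a colour scale cut at -2 and 2. Open dots mark an adjusted p below 0.01 and filled dots mark genes that also changed more than 2-fold, and the filled dots gather in the Bmi1, Cbx7 and Jarid2 columns (9, 5 and 4 of them).

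Promoters of 3 genes are printed because their genes carry most of the called changes, and because Bmi1 and Cbx7 moved in opposite directions in EBs. The RefSeq table (GRCm38.p6) held promoters for 9 of the 10 genes, and the 250 bases before the start are given 5′ to 3′ on the strand of the gene, with each CG dinucleotide in capitals. Cbx2 was not among them.
Bmi1, chr2:18676768-18677017, plus strand: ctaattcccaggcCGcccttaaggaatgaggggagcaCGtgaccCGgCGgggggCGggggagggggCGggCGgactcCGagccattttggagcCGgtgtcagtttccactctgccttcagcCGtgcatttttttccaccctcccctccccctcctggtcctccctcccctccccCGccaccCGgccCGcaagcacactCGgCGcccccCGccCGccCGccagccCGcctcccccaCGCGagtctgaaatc
Cbx7, chr15:79932647-79932896, minus strand: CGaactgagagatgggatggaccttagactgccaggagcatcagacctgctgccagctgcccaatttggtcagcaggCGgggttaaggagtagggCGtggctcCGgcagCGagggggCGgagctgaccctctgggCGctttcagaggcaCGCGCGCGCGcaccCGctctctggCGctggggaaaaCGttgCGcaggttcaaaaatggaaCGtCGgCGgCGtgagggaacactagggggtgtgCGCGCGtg
Jarid2, first of 2 starts, chr13:44730524-44730773, plus strand: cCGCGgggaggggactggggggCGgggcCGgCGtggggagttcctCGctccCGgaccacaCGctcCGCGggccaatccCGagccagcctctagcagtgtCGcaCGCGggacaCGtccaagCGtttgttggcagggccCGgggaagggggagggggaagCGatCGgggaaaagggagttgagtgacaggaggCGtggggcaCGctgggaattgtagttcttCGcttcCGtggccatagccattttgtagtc
Bmi1 had 21 CG in these bases, Cbx7 23 and Jarid2 23, against a median of 6 over the 32851 promoters of the table, of which 37.8% held 10 or more. The GC box GGGCGG, read on both strands and itself holding a CG, occurred 6 times before Bmi1, 1 time before Cbx7 and 1 time before Jarid2, and 32.7% of all promoters held at least 1. Of the other genes, Suz12 had 37 CG, Ezh2 23, Mtf2 23 at its first start and 2 at its second, Rnf2 20, Ezh1 14 and Eed 12. CG counts above the median of all promoters were found before genes that rose and genes that fell in EBs, and nothing is read from them.

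Levels in WT ESCs, scaled to the length of each gene (RPKM), put the PRC2 core and its accessory subunits on top. Suz12 was 71.7 ± 13.9 RPKM, Mtf2 69.0 ± 19.6, Eed 62.7 ± 9.42, Ezh2 60.9 ± 12.1 and Jarid2 45.4 ± 4.72 (n = 11). Cbx7 was 41.9 ± 11.2 RPKM and Rnf2 32.1 ± 6.89 RPKM, while Cbx2, Ezh1 and Bmi1 were lowest at 9.20 ± 1.31, 9.15 ± 1.19 and 5.90 ± 1.42 RPKM. Gaps between neighbours in this order were larger than both SDs only between Ezh2 and Jarid2, between Rnf2 and Cbx2 and between Ezh1 and Bmi1. Over all 34 group means, Bmi1 varied most, 7.16-fold between 8.04 CPM in WT serum cells and 57.5 CPM in LSD1 KO ESCs with A485. Rnf2 varied least, 2.08-fold between 90.6 CPM in WT serum cells and 188.3 CPM in WT EBs with DMSO. Cbx7 varied 5.79-fold, Suz12 4.28-fold, Mtf2 3.80-fold, Cbx2 3.63-fold, Jarid2 3.58-fold, Eed 3.53-fold, Ezh1 2.83-fold and Ezh2 2.81-fold. When the 34 groups were put in order of a gene's mean, 29 to 33 of the 33 pairs of neighbours overlapped in their libraries, so each order was a gradient with few steps.

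The first comparison asked how the machinery changes when WT ESCs leave the naive state. The WT serum cells and EpiLCs carried DMSO and the WT ESCs and EBs did not, so solvent and culture cannot be told apart there. In EBs 7 of the 10 genes passed (2 higher, 5 lower) and 4 were called, against 58.8% and 36.6% of all tested genes. In serum cells 6 passed and 3 were called, against 28.1% and 20.9%, and in EpiLCs 4 passed and 1 was called, against 24.2% and 16.7%. Eed and Mtf2 fell and Cbx2 rose in all 3 cultures, while Ezh2 passed in none of them.

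Within PRC2, Eed ran from 45.9 to 66.6 CPM in WT EBs with a median of 56.4, stood at 70.9 and 69.3 CPM in serum cells and at 69.8 and 69.5 CPM in EpiLCs, against 108 to 177 CPM (median 127) in WT ESCs. No library of the 3 cultures reached the lowest WT ESC. Its log2 fold change was -1.33 ± 0.11 in EBs (adjusted p = 1.76e-10), -0.94 ± 0.17 in serum cells (adjusted p = 0.000145) and -0.85 ± 0.17 in EpiLCs (adjusted p = 0.000526). Mtf2 was 151 to 214 CPM in WT EBs (median 159), 147 and 141 CPM in serum cells and 189 and 174 CPM in EpiLCs, against 260 to 610 CPM (median 348) in WT ESCs. These ranges did not overlap either, and the log2 fold changes were -1.29 ± 0.15, -1.39 ± 0.25 and -0.95 ± 0.24 in the same order of cultures. Suz12 fell by 0.97 on the log2 scale in EBs and by 0.67 in serum cells, and Jarid2 fell by 0.71 in EBs. In EpiLCs Suz12 was -0.45 ± 0.18 (adjusted p = 0.0548) and Jarid2 0.30 ± 0.14 (adjusted p = 0.0917). Ezh1, the homologue of Ezh2, behaved otherwise: it fell by 1.12 in serum cells and by 0.64 in EpiLCs, at 20.4 and 16.4 CPM and at 26.3 and 21.7 CPM, against 32.8 to 47.1 CPM (median 37.6) in WT ESCs, and in EBs its 38.6 to 50.4 CPM overlapped the WT ESC range. With single libraries left out, Ezh1, Eed and Mtf2 in EpiLCs no longer passed, at adjusted p of 0.0156 to 0.104, nor did Suz12 in serum cells, at 0.0386 and 0.0871. In fits of the compared groups alone the adjusted p was 0.0153 for Mtf2 in EpiLCs and 0.0176 for Suz12 in serum cells.

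Within PRC1 the CBX genes moved in opposite directions in EBs. Cbx7 ran from 18.7 to 47.9 CPM in WT EBs (median 32.8), against 84.7 to 187 CPM (median 106) in WT ESCs, a log2 fold change of -2.01 ± 0.20 (adjusted p = 5.12e-09). The 3 highest WT ESC libraries were numbers 1 to 3 of the second alignment batch, and every WT EB lay below all 11. Cbx7 stayed at 115 and 104 CPM in serum cells and 121 and 103 CPM in EpiLCs, both inside the WT ESC range. Cbx2 was 76.0 to 112.6 CPM in WT EBs (median 94.4), 54.2 and 55.8 CPM in serum cells and 75.0 and 74.3 CPM in EpiLCs, against 28.9 to 46.0 CPM (median 33.6) in WT ESCs. It rose by 1.27 ± 0.10 (adjusted p = 5.98e-11), 0.61 ± 0.15 (adjusted p = 0.00209) and 1.16 ± 0.14 (adjusted p = 1.23e-06), without overlap in any culture. The serum value of Cbx2 had adjusted p of 0.0334 and 0.0325 without serum library 1 or 2. Rnf2 was -0.52 ± 0.16 in serum cells (adjusted p = 0.0124), and with the alignment batch as a term it passed at -0.61 (adjusted p = 0.00136). Bmi1 fell to 9.27 and 6.81 CPM in serum cells, against 14.1 to 32.0 CPM (median 20.5) in WT ESCs (-1.45 ± 0.26, adjusted p = 9.27e-05). Without serum library 2 this was -1.23 with an adjusted p of 0.0123, and Ezh1 was -0.95. In EBs Bmi1 was 25.7 to 40.5 CPM, overlapping WT ESCs, and its rise of 0.44 ± 0.14 (adjusted p = 0.00855) lost the threshold in 5 alternatives, at an adjusted p of up to 0.0231.

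**Figure D2:**
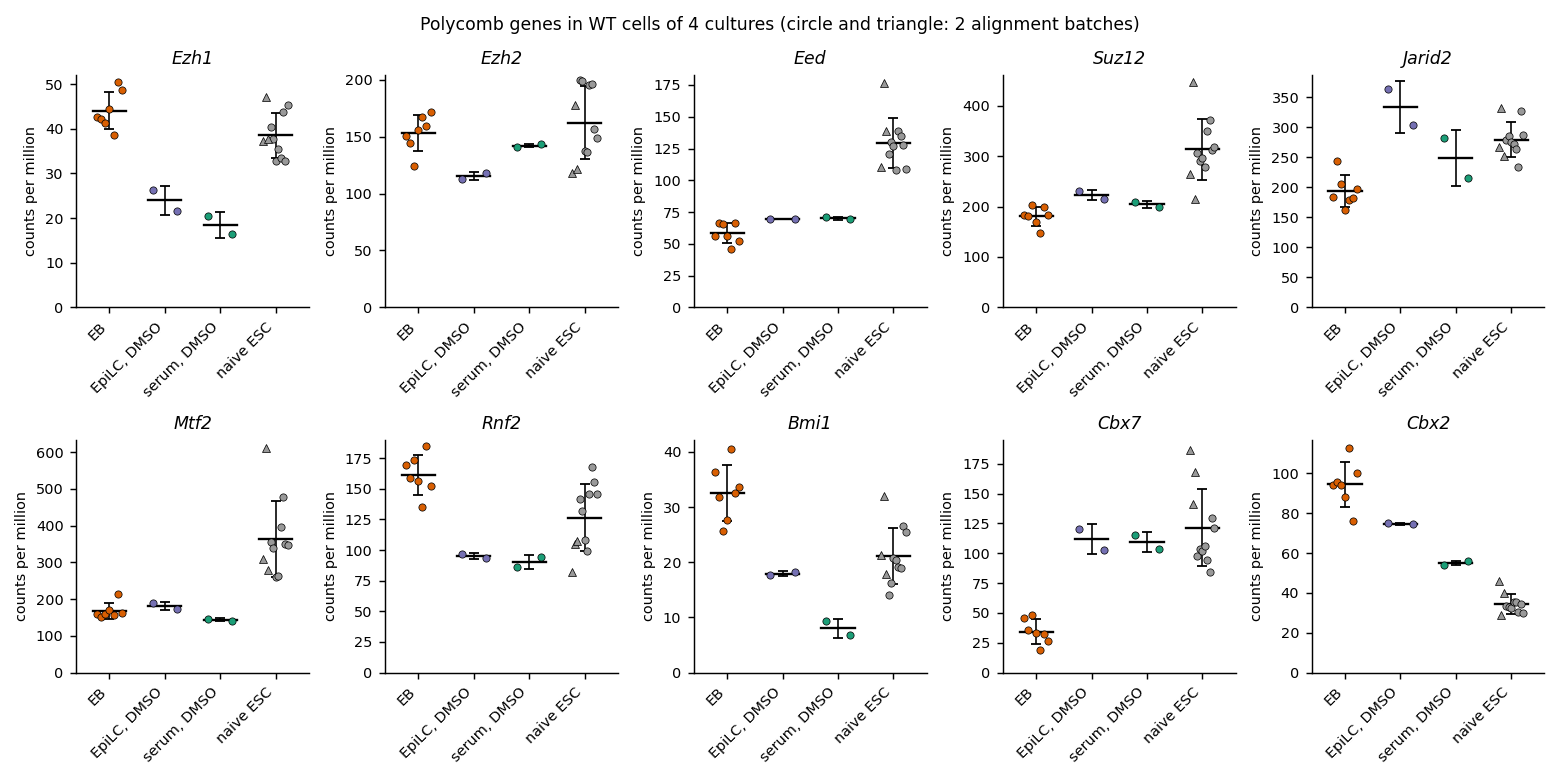
Levels of the 10 genes (vertical axes, CPM from 0) in WT EBs, EpiLCs, serum cells and naive ESCs. Each point is a library (triangles mark the second alignment batch), and lines and bars are the mean and SD of each group. Cbx7 lies at 18.7 to 47.9 CPM in EBs only, and Cbx2 lies above the ESC range in the other 3 cultures.

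Other Polycomb genes moved as well. Of 9 other PRC2 genes, 1 was called higher and 3 lower in WT EBs, with a median log2 fold change of -0.30 beside 0.06 over all genes. Of 24 other PRC1 genes, 6 were called higher and 2 lower, including Yaf2 (3.16), a partner of RING1 proteins in variant PRC1, and Phc2 (2.06), a polyhomeotic subunit. In serum cells 6 were called higher and 1 lower and in EpiLCs 4 higher and 0 lower. Kdm2b, which brings variant PRC1 to CpG islands, rose by 1.39 in serum cells and by 1.24 in EpiLCs, and Phc1 rose by 1.31 and 1.54. Of 10 enzymes that remove the Polycomb marks and their partners, Asxl3, a subunit of the deubiquitinase, rose by 3.67 in EBs and 2.15 in serum cells. Developmental regulators known as Polycomb targets in ESCs were higher in EBs as well: 14 of the 19 tested were called higher and 2 lower, with a median of 5.43. In serum cells 5 of 19 were called higher and 1 lower, and in EpiLCs 0 higher and 2 lower. In bulk RNA fewer cells of a type and less RNA per cell cannot be told apart, and in WT EBs, mixtures of germ layers, 10 of 12 proliferation genes had also fallen and 1 had risen.

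In ESCs the question was whether losing LSD1, or only its catalysis, alters these genes. In LSD1 KO ESCs 5 of 10 rose, none fell and 1 was called, against 51.2% and 21.0% of all tested genes, shares at which the members did not stand out. Suz12 was 609 to 709 CPM (median 647) in LSD1 KO ESCs, against 215 to 447 CPM (median 306) in WT ESCs. All 6 mutant libraries lay above all WT libraries, at 1.08 ± 0.09 (adjusted p = 1.04e-13), and the value was 1.01 with the alignment batch as a term. Jarid2 was 430 to 535 CPM (median 482), against 234 to 332 CPM (median 276), again without overlap, at 0.81 ± 0.07 (adjusted p = 3.97e-12) and 0.71 with the batch term. Eed (0.48 ± 0.08), Mtf2 (0.60 ± 0.11) and Bmi1 (0.62 ± 0.11) also passed, but their ranges overlapped with WT. For Eed and Mtf2 the overlap came from WT library 2 alone, at 176.7 and 610.2 CPM. The next highest WT libraries were at 139.0 and 477.7 CPM, below the lowest LSD1 KO libraries at 170.1 and 500.3 CPM. With the batch term Eed, Mtf2 and Bmi1 were 0.27, 0.38 and 0.37, with adjusted p of 0.0384, 0.037 and 0.0417, and against WT libraries 1 to 3 alone 0.27, 0.38 and 0.37, with adjusted p of 0.0359, 0.0259 and 0.0222. Both of these fits lean on WT library 2, and no fit of LSD1 KO against WT ESCs left it out.

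For Cbx7 and Cbx2 the value also depended on which WT libraries were used. Cbx7 was 107 to 119 CPM in LSD1 KO ESCs, against 187, 141 and 168 CPM in WT libraries 1 to 3 and 84.7 to 129 CPM in WT libraries 4 to 11. Its log2 fold change was -0.11 ± 0.11 (adjusted p = 0.422) over all WT libraries and -0.62 ± 0.08 (adjusted p = 3.18e-08) against WT 1 to 3. For Cbx2 the same values were -0.22 ± 0.10 (adjusted p = 0.0637) and -0.44 ± 0.13 (adjusted p = 0.00643). LSD1 KO ESCs of the first alignment batch came from the A485 and DOX experiments, as cells with DMSO and, lacking the transgene, cells without DOX. LSD1Res ESCs without DOX, on the same background and of the same batch, are given last. Suz12 was 478 and 493 CPM with DMSO and 496 and 438 CPM without DOX, above the WT range of 278 to 371 CPM in libraries 4 to 11. Jarid2 was 301 and 347 CPM with DMSO and 375 and 355 CPM without DOX, Mtf2 400 and 376 CPM and 379 and 341 CPM, and Bmi1 20.6 and 18.95 CPM and 19.4 and 15.6 CPM. Of these, Mtf2 and Bmi1 lay within the range of WT libraries 4 to 11 (260 to 478 CPM and 14.1 to 26.6 CPM). For Jarid2 that WT range was 234 to 328 CPM, with DMSO library 1 at 301 CPM inside it and the others above it. Cbx7 was 124.3 to 127.5 CPM with DMSO and 85.35 to 99.4 CPM without DOX, within its range in WT libraries 4 to 11. Cbx2 was 40.45 to 41.94 CPM and 36.17 to 37.27 CPM in the same order, within the 28.9 to 46.0 CPM of all WT ESCs. No test was run between these groups. Eed was 110.5 and 117.8 CPM with DMSO and 119.0 and 92.4 CPM without DOX, within the 108.2 to 139.0 CPM of WT libraries 4 to 11 or, for the last, below it. Ezh2 was 208.1 and 209.3 CPM with DMSO and 242.9 and 264.6 CPM without DOX, above every WT ESC (at most 200.3 CPM) and above the 165.8 to 190.2 CPM of the LSD1 KO ESCs of the second batch. In LSD1Res ESCs without DOX Ezh2 was 166.0, 184.5, 237.8 and 241.9 CPM, with libraries 1 and 2 inside the WT range. Suz12 was 371.4, 388.2, 455.1 and 476.7 CPM there, the first of them level with WT library 9 at 371.0 CPM.

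**Figure D3:**
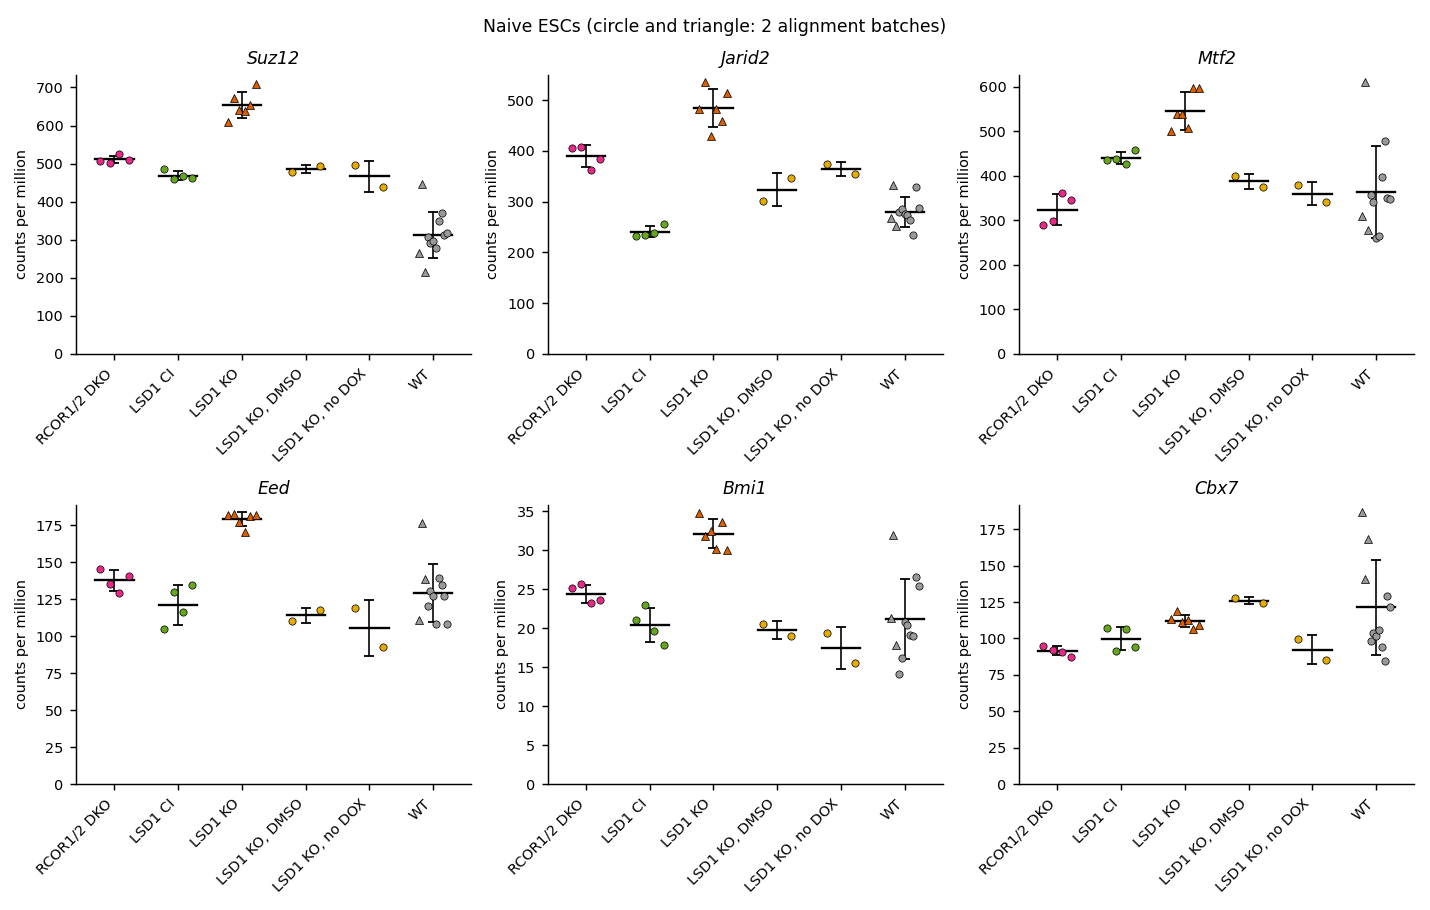
Levels of 6 genes (vertical axes, CPM from 0) in naive ESCs of RCOR1/2 DKO, LSD1 CI, LSD1 KO (untreated, with DMSO and without DOX) and WT. Points are libraries, triangles mark the second alignment batch, and lines and bars are mean and SD. Suz12 is at 438 CPM or higher in every mutant library shown, while WT libraries range from 215 to 447 CPM.

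LSD1 CI ESCs changed less. Of the 10 genes 2 rose, none fell and none was called, against 6.93% and 3.24% of all genes. Suz12 was 486, 459, 466 and 463 CPM in LSD1 CI ESCs, all above the highest WT library at 447 CPM, with a log2 fold change of 0.54 ± 0.10 (adjusted p = 0.000162). Ezh2 was 282, 187, 267 and 179 CPM, against 118 to 200 CPM (median 157) in WT ESCs, so only libraries 1 and 3 exceeded WT. Its rise of 0.46 ± 0.12 (adjusted p = 0.00766) did not hold with the batch term (0.41, adjusted p = 0.0222) or without library 1 (0.34) or 3 (0.37). Ezh2 alternated by library number in RCOR2 KO ESCs too (207.7, 133.8, 200.1 and 137.3 CPM) and in RCOR1 KO ESCs (163.8, 204.8, 172.8 and 212.5 CPM). What the numbers stand for was not tested. In fits of LSD1 CI and WT ESCs alone the adjusted p was 0.0229 for Suz12 and 0.091 for Ezh2.

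In LSD1 KO ESCs compared with LSD1 CI ESCs, 4 of the 10 genes rose, none fell and 1 was called, against 39.4% and 16.0% of all genes. Jarid2 was 430 to 535 CPM in LSD1 KO ESCs, against 232, 235, 239 and 256 CPM in LSD1 CI ESCs, a log2 fold change of 1.06 ± 0.10 (adjusted p = 2.39e-11). No LSD1 KO library came near an LSD1 CI library. The batches were the same as the genotypes here and were linked only through WT, and with the batch term the value was 0.93, below 2-fold (adjusted p = 2.74e-06). Eed (0.62), Suz12 (0.54) and Bmi1 (0.71) did not pass with the batch term, at adjusted p of 0.0853, 0.0318 and 0.168, and Cbx7, at 0.22 without it, turned to -0.54 (adjusted p = 0.000542).

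The CoREST scaffolds were removed singly and together. None of the 10 genes passed in RCOR1 KO ESCs, against 0.318% passing and 0.142% called over all genes. At an unadjusted p below 0.05 in edgeR there were 2 (Bmi1 and Cbx7), and with DESeq2 1 passed. In RCOR2 KO ESCs 1 passed and none was called, against 12.0% and 3.85%. That gene was Rnf2, at 88.0, 107, 82.8 and 102 CPM, against 82.5 to 168 CPM in WT ESCs (-0.34 ± 0.10, adjusted p = 0.00968), and it no longer passed in 6 alternatives and without RCOR2 KO library 1, 3 or 4. In RCOR1/2 DKO ESCs 4 passed (2 higher, 2 lower) and none was called, against 37.0% and 17.7%. Suz12 was 507, 502, 524 and 511 CPM and Jarid2 405, 408, 362 and 384 CPM, against 215 to 447 and 234 to 332 CPM in WT ESCs. Both lay above every WT library, at 0.56 ± 0.10 (adjusted p = 9.87e-06) and 0.33 ± 0.09 (adjusted p = 0.00137). Without DKO library 1 or 2 the adjusted p of Jarid2 was 0.012 and 0.0101. Ezh1 was 28.3, 28.4, 32.7 and 29.5 CPM, below the lowest WT library at 32.8 CPM (-0.52 ± 0.14, adjusted p = 0.00159), and Cbx7 was 95.1, 92.4, 90.9 and 87.6 CPM, inside the WT range (-0.56 ± 0.14, adjusted p = 0.00066). With the batch term Cbx7 was -0.31 (adjusted p = 0.00134), and in a fit of RCOR1/2 DKO and WT ESCs alone it did not pass (adjusted p = 0.03). Suz12 lay above the WT range in LSD1 KO, LSD1 CI and RCOR1/2 DKO ESCs, and these comparisons share their WT libraries.

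Eed was lower in all 3 genotypes without MLL4. In MLL4 KO ESCs 2 of 10 genes fell and none was called, against 17.3% and 10.7% of all genes. In MLL4/LSD1 DKO ESCs 2 fell and none was called, against 29.5% and 14.2%, and in MLL4KO/LSD1CI ESCs 2 fell, 1 rose and none was called, against 28.3% and 14.1%. Eed was 96.0 and 81.3 CPM in MLL4 KO, 89.6, 79.6, 94.8 and 79.9 CPM in MLL4/LSD1 DKO and 92.8, 77.5, 108.5 and 88.7 CPM in MLL4KO/LSD1CI ESCs, against 108.2 to 177 CPM in WT ESCs. One MLL4KO/LSD1CI library touched the WT range and the other 9 lay below it. WT libraries 10 and 11, of like depth, held 127.4 and 108.5 CPM of Eed, and no test was run against these alone. The log2 fold changes of Eed were -0.64 ± 0.14, -0.66 ± 0.10 and -0.54 ± 0.10. Mtf2 was 232 and 264 CPM in MLL4 KO and 201, 256, 265 and 251 CPM in MLL4KO/LSD1CI ESCs, against 260 to 610 CPM in WT ESCs (-0.65 ± 0.18 and -0.63 ± 0.14), while in MLL4/LSD1 DKO ESCs it was -0.39 ± 0.13 (adjusted p = 0.0161). The second gene to fall in MLL4/LSD1 DKO ESCs was Ezh1, at 22.9, 32.6, 19.4 and 28.7 CPM, against 32.8 to 47.1 CPM in WT ESCs (-0.64 ± 0.14, adjusted p = 0.000244). The gene that rose in MLL4KO/LSD1CI ESCs was Bmi1 (0.45 ± 0.13, adjusted p = 0.00592), whose adjusted p was 0.0235 and 0.0345 without library 2 or 4. With the batch term Cbx7 passed as well, at 0.32 in MLL4/LSD1 DKO and 0.25 in MLL4KO/LSD1CI ESCs (adjusted p = 0.00102 and 0.00959). For MLL4 KO the adjusted p of Mtf2 was 0.0147 with the batch term and 0.154 and 0.0376 without library 1 or 2, and that of Eed 0.0472 without library 2. In fits of the compared groups alone Eed and Mtf2 did not pass in MLL4 KO ESCs (adjusted p = 0.029 and 0.137), nor did Mtf2 and Bmi1 in MLL4KO/LSD1CI ESCs (adjusted p = 0.0216 and 0.0521).

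Against MLL4 KO ESCs, none of the 10 genes passed in MLL4/LSD1 DKO ESCs, where 12.9% of all genes passed and 7.90% were called, or in MLL4KO/LSD1CI ESCs, where 0.142% passed and 0.125% were called. At an unadjusted p below 0.05 in edgeR there were 1 (Ezh2) and 0, and with DESeq2 1 and 0 passed. Suz12 was 364, 340, 289 and 331 CPM in MLL4/LSD1 DKO ESCs, against 248 and 299 CPM in MLL4 KO ESCs. Ezh1 varied widely within genotypes, at 20.9, 39.8, 24.1 and 36.8 CPM in MLL4KO/LSD1CI ESCs and 18.3 and 35.6 CPM in MLL4 KO ESCs. In both, and in MLL4/LSD1 DKO ESCs (22.9, 32.6, 19.4 and 28.7 CPM), the odd-numbered libraries were the lower ones. The fits above did not use the library numbers, and what the numbers stand for was not tested.

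In EBs the called genes of PRC1 were Bmi1, Cbx7 and Cbx2, and the 1 called gene of PRC2 was Ezh1. In LSD1 KO EBs 3 of 10 genes passed (1 higher, 2 lower) and 2 were called, against 24.1% and 13.7% of all genes. In RCOR1/2 DKO EBs 8 passed (5 higher, 3 lower) and 3 were called, against 47.8% and 26.4%. In LSD1 CI EBs 1 passed and none was called, against 5.07% and 2.54%, and in RCOR2 KO EBs 1 passed and none was called, against 7.18% and 5.28%. None passed in RCOR1 KO EBs, where 1 gene of 17928 did (0.00558% by either rule). Mtf2 and Cbx2 had an unadjusted p below 0.05 there, and with DESeq2 0 passed.

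Bmi1 fell in LSD1 KO, RCOR2 KO and RCOR1/2 DKO EBs. It was 9.19 and 13.9 CPM in LSD1 KO EBs, 16.2 and 20.8 CPM in RCOR2 KO EBs and 11.8, 10.9, 14.9 and 14.3 CPM in RCOR1/2 DKO EBs, against 25.7 to 40.5 CPM (median 32.5) in WT EBs. All 8 of these libraries lay below all 7 WT libraries. LSD1 CI EBs (36.9, 33.3, 25.4 and 26.9 CPM) and RCOR1 KO EBs (29.9, 31.3, 45.3 and 34.6 CPM) did overlap WT. The log2 fold changes were -1.48 ± 0.21 in LSD1 KO (adjusted p = 1.43e-05), -0.86 ± 0.20 in RCOR2 KO (adjusted p = 0.00531) and -1.34 ± 0.16 in RCOR1/2 DKO EBs (adjusted p = 2.64e-07). The RCOR2 KO value of Bmi1 lost the threshold without library 1 (-0.70, adjusted p = 0.116) or 2 (-1.07, adjusted p = 0.0308) and in a fit of the compared groups alone (adjusted p = 0.0215).

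Cbx7 went the other way. It was 108, 103, 138 and 127 CPM in RCOR1/2 DKO EBs and 76.4 and 55.0 CPM in LSD1 KO EBs, against 18.7 to 47.9 CPM (median 32.8) in WT EBs. All 6 lay above WT, and the RCOR1/2 DKO EBs lay within the range of WT ESCs, 84.7 to 187 CPM. The log2 fold change was 1.78 ± 0.20 in RCOR1/2 DKO EBs (adjusted p = 2.67e-07) and 0.95 ± 0.25 in LSD1 KO EBs (adjusted p = 0.00574), the second of which lost the threshold without LSD1 KO library 1 (0.71, adjusted p = 0.135) or 2 (1.18, adjusted p = 0.0137) and with the compared groups alone (adjusted p = 0.0256). Cbx2 was 36.6, 28.6, 35.5 and 38.6 CPM in RCOR1/2 DKO EBs, against 76.0 to 112.6 CPM (median 94.4) in WT EBs, with libraries 1, 3 and 4 inside the WT ESC range of 28.9 to 46.0 CPM and library 2 just below it (-1.45 ± 0.11, adjusted p = 5.1e-10). In LSD1 KO EBs it was 72.2 and 65.3 CPM, below the lowest WT EB (-0.44 ± 0.14, adjusted p = 0.0131). Rnf2 fell by 0.33 in RCOR1/2 DKO EBs (adjusted p = 0.00289), with overlap, and without DKO library 1 or 4 its adjusted p was 0.0101 and 0.0128.

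In PRC2, Ezh1 was 22.4 and 12.8 CPM in LSD1 KO EBs and 24.2, 28.1, 32.6 and 32.4 CPM in LSD1 CI EBs, against 38.6 to 50.4 CPM (median 42.7) in WT EBs. Both mutants lay below all WT libraries, at -1.31 ± 0.17 (adjusted p = 8.28e-06) and -0.52 ± 0.13 (adjusted p = 0.00945). The LSD1 KO value was -0.95 without LSD1 KO library 2, under 2-fold, and the LSD1 CI value lost the threshold in fits of the compared groups alone (adjusted p = 0.0171) and without LSD1 CI library 1, 2 or 3. In RCOR1/2 DKO EBs 4 other PRC2 genes rose, while Ezh2 was -0.12 ± 0.12 (adjusted p = 0.384). Suz12 was 329, 322, 353 and 336 CPM, against 147 to 203 CPM (median 182) in WT EBs, and Jarid2 358, 332, 411 and 374 CPM, against 162 to 244 CPM (median 184). Mtf2 (255, 280, 256 and 238 CPM, against 151 to 214 CPM) and Eed (90.0, 85.1, 86.8 and 84.1 CPM, against 45.9 to 66.6 CPM) were also above every WT EB. The log2 fold changes were 0.88 ± 0.07 for Suz12, 0.92 ± 0.11 for Jarid2, 0.60 ± 0.10 for Mtf2 and 0.55 ± 0.12 for Eed, all with adjusted p of 0.000424 or less.

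**Figure D4:**
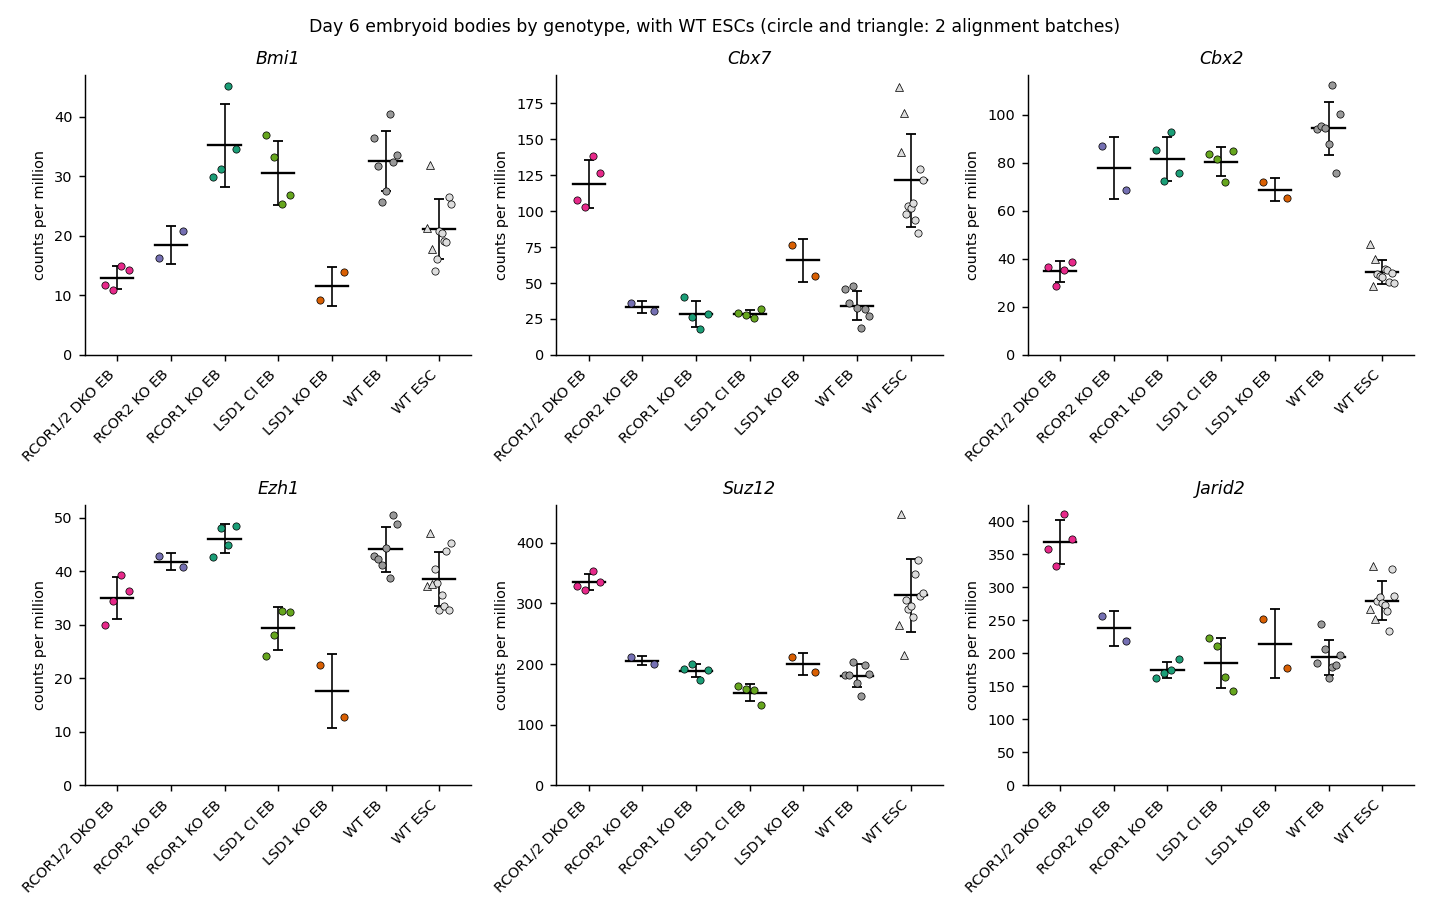
Levels of 6 genes (vertical axes, CPM from 0) in EBs of 5 mutant genotypes and WT, with WT ESCs at the right. Points are libraries, triangles mark the second alignment batch, and lines and bars are mean and SD. RCOR1/2 DKO EBs lie within the WT ESC range for Cbx7 (103 to 138 CPM), below WT EBs for Cbx2 (28.6 to 38.6 CPM, beside 28.9 to 46.0 CPM in WT ESCs) and below WT EBs for Bmi1.

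The EBs also differed in their markers, and the part of this in the members' values was not tested. In RCOR1/2 DKO EBs the 8 naive markers summed to 680 to 781 CPM, against 110 to 402 CPM in WT EBs (6 called higher, 1 lower), and the 9 mesoderm and heart markers to 14.1 to 20.2 CPM, against 139.5 to 679 CPM (7 called lower). In LSD1 KO EBs the naive markers summed to 302 and 332 CPM and the mesoderm and heart markers to 433 and 556 CPM, both sums within the WT range. A sum follows its most abundant genes and does not show that single markers kept their level. The study itself reported lower cardiac marker genes and a depletion of mesodermal cells in LSD1 KO EBs. The 8 neural markers of LSD1 KO EBs summed to 390 and 416 CPM, against 83.6 to 229 CPM in WT EBs, and all 7 endoderm markers were called lower. Neural sums also lay above WT in RCOR1/2 DKO (243 to 280.5 CPM) and RCOR2 KO EBs (351 and 379.5 CPM). Endoderm sums were 62.3 to 78.8 CPM and 93.85 and 105 CPM in the same order, against 336 to 642 CPM in WT EBs. LSD1 CI and RCOR1 KO EBs overlapped WT in both sums. RCOR2 KO EBs had 18.7 and 53.3 CPM of the mesoderm and heart markers, and LSD1 CI EBs 154 to 814 CPM. No naive, neural or mesoderm and heart marker was at 0 in these groups. Of the 20 Polycomb target genes, 5 were called higher and 12 lower in RCOR1/2 DKO EBs, with a median log2 fold change of -2.83 beside -0.03 over all genes. In RCOR2 KO EBs 2 were called higher and 7 lower, and in LSD1 KO EBs 2 higher and 6 lower. Other PRC1 genes fell more often than they rose in RCOR1/2 DKO EBs (12 lower, 7 higher, of 24), where Phc1, high in ESCs, rose by 2.90 and Phc2 fell by 1.17. Ezhip, an inhibitor of PRC2 known from the germline, was called higher in RCOR1/2 DKO (6.81), LSD1 KO (5.63), LSD1 CI (3.18) and RCOR2 KO EBs (2.97).

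The LSD1 KO EBs were also set against LSD1 CI EBs. Here 3 of 10 genes passed (1 higher, 2 lower) and 2 were called, against 18.4% and 11.4% of all genes. Bmi1 was 9.19 and 13.9 CPM in LSD1 KO EBs, against 36.9, 33.3, 25.4 and 26.9 CPM in LSD1 CI EBs (-1.45 ± 0.22, adjusted p = 5.66e-05). Cbx7 was 76.4 and 55.0 CPM, against 29.2, 27.8, 25.7 and 31.7 CPM (1.15 ± 0.28, adjusted p = 0.00396). Neither gene's libraries overlapped. The Cbx7 call was lost without LSD1 KO library 1 (0.91, adjusted p = 0.0713) and without LSD1 KO library 2, LSD1 CI library 2 or LSD1 CI library 3, at adjusted p of 0.01 to 0.0118. Ezh1 fell by 0.78 (adjusted p = 0.0024), and without LSD1 KO library 2 it was -0.43 (adjusted p = 0.115). With the compared groups alone the adjusted p of Ezh1 was 0.0387.

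A second set of LSD1 KO EBs, with DMSO, stood beside WT EBs with DMSO and gave the same direction for Bmi1 and Cbx7. In it 6 of 10 genes passed (2 higher, 4 lower) and 2 were called, against 28.1% and 18.8% of all genes. Bmi1 was 16.2 and 17.6 CPM in LSD1 KO EBs, against 44.6 and 44.3 CPM in WT EBs (-1.48 ± 0.14, adjusted p = 5.06e-06). Cbx7 was 60.3 and 61.1 CPM, against 25.2 and 21.6 CPM (1.29 ± 0.15, adjusted p = 3.61e-05). Ezh1 was 22.3 and 16.4 CPM, against 35.3 and 36.4 CPM (-0.97 ± 0.16, adjusted p = 0.000448), and Cbx2 47.7 and 59.3 CPM, against 92.3 and 91.6 CPM (-0.87 ± 0.14, adjusted p = 0.000452, and 0.0101 without LSD1 KO library 1). The 2 sets did not share libraries, and both calls for Bmi1 and Cbx7 held without any single library. Ezh2 rose by 0.55 and Rnf2 fell by 0.44, at adjusted p of 0.0026 and 0.00827, and each lost the threshold without single libraries, at adjusted p of 0.0374 to 0.101.

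The difference between the responses in EBs and in ESCs was tested in 1 fit of both cultures. For LSD1 KO 6 of 10 genes passed (1 higher, 5 lower) and 3 were called, against 30.9% and 18.9% of all genes, and for RCOR1/2 DKO 7 passed (4 higher, 3 lower) and 3 were called, against 32.8% and 20.5%. For LSD1 CI 2 passed and none was called, against 5.29% and 3.25%, for RCOR2 KO 1 passed and none was called, against 10.3% and 6.79%, and for RCOR1 KO neither the 10 genes nor any other gene passed in edgeR (0% by both rules), where 1 member (Bmi1) had an unadjusted p below 0.05 and 0 passed with DESeq2. For Bmi1 the difference was -2.15 ± 0.25 for LSD1 KO (adjusted p = 1.43e-09) and -1.48 ± 0.21 for RCOR1/2 DKO (adjusted p = 7.52e-08). For Cbx7 the differences were 1.02 ± 0.27 (adjusted p = 0.00176) and 2.26 ± 0.25 (adjusted p = 2.03e-10), and the first was under 2-fold with DESeq2 or its size factors (0.99 each), did not pass in a fit of the 4 groups alone (adjusted p = 0.0104) or with the replicate block (adjusted p = 0.0102), was 1.53 with the batch term, and lost the threshold in fits of the 4 groups without either LSD1 KO EB library (0.79, adjusted p = 0.14, and 1.28, adjusted p = 0.0155). Ezh1 differed by -1.43 ± 0.18 for LSD1 KO (adjusted p = 7.71e-09), which with the replicate block was -1.04 (adjusted p = 0.0784). Mtf2 differed by -0.77 for LSD1 KO (adjusted p = 0.00216) and did not pass with the batch term (-0.55, adjusted p = 0.0438) or the 4 groups alone (adjusted p = 0.0302), while Rnf2 passed with the batch term (-0.49, adjusted p = 0.00701) and not without it (-0.21, adjusted p = 0.254). Suz12 differed by -0.96 ± 0.15 for LSD1 KO and by -0.74 ± 0.14 for LSD1 CI. With the replicate block these had adjusted p of 0.246 and 0.0788. For RCOR1/2 DKO, at 0.88 in EBs and 0.56 in ESCs, Suz12 did not pass the test of the difference (0.24 ± 0.14, adjusted p = 0.154). The RCOR2 KO response of Bmi1 differed by -0.86 ± 0.25 (adjusted p = 0.00999), and it lost the threshold in 6 of the 8 alternatives.

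Serum cells and EpiLCs gave a different picture for Bmi1. In LSD1 KO serum cells 3 of 10 genes rose, none fell and 1 was called, against 20.1% and 9.55% of all genes, and in LSD1 CI serum cells 1 rose and was called, against 7.43% and 2.99%. In LSD1 KO EpiLCs 3 passed (2 higher, 1 lower) and none was called, against 24.9% and 9.49%. None passed in LSD1 CI EpiLCs, against 6.52% and 2.15%, where 4 (Suz12, Mtf2, Bmi1 and Cbx2) had an unadjusted p below 0.05 in edgeR, 2 passed with DESeq2 and Bmi1 was 0.33 ± 0.10 (adjusted p = 0.048 in edgeR). Bmi1 was 21.4 and 18.8 CPM in LSD1 KO and 15.1 and 16.8 CPM in LSD1 CI serum cells, against 9.27 and 6.81 CPM in WT serum cells. Both mutants exceeded both WT libraries (1.32 ± 0.16, adjusted p = 8.78e-05, and 1.02 ± 0.15, adjusted p = 0.00129), and the LSD1 CI value was under 2-fold without WT library 2 (0.79) or LSD1 CI library 2 (0.97), and in a fit of these 2 groups alone it did not pass (adjusted p = 0.0179). In EpiLCs Bmi1 was 27.6 and 30.1 CPM in LSD1 KO cells, against 17.6 and 18.2 CPM in WT cells (0.65 ± 0.10, adjusted p = 0.000177). Cbx2 was 56.6 and 51.8 CPM, against 75.0 and 74.3 CPM (-0.50 ± 0.07, adjusted p = 8.15e-05). With 2 libraries in each of these groups, ranges that do not overlap carry little weight. Suz12 rose by 0.48 in LSD1 KO serum cells and by 0.34 in LSD1 KO EpiLCs, and Mtf2 rose by 0.38 in LSD1 KO serum cells. Without LSD1 KO serum library 1 both serum values lost the threshold (adjusted p = 0.0115 and 0.0796).

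LSD1 KO went with less Bmi1 in EBs and with more in serum cells. The difference of these responses, EBs minus serum cells and both with DMSO, was added after seeing the data. It was -2.78 ± 0.20 for Bmi1 (adjusted p = 2.34e-08), with 5 of 10 genes passing (1 higher, 4 lower) and 3 called, against 21.5% and 14.7% of all genes. Cbx7 (1.20) and Ezh1 (-1.05) were the other called genes, and Cbx2 (-0.89) and Rnf2 (-0.48) passed. Without LSD1 KO EB library 2 or WT serum library 2, Ezh1 was -0.85 and -0.87, under 2-fold. The naive markers summed to 586.5 and 716 CPM in LSD1 KO serum cells, against 242 and 273 CPM in WT serum cells (6 of 8 called higher), and their part in these values was not tested.

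A485 was given to LSD1 KO cells to ask how p300 and CBP bear on gene expression without LSD1. In ESCs 5 of 10 genes passed (1 higher, 4 lower) and 1 was called, against 47.7% and 17.6% of all genes, in serum cells 4 passed (1 higher, 3 lower) and 2 were called, against 30.9% and 12.5%, and in EpiLCs 7 passed (1 higher, 6 lower) and 1 was called, against 44.5% and 17.6%. In EBs 7 passed (6 higher, 1 lower) and 2 were called, against 20.9% and 13.8%. The dose in the study differed between ESCs and EBs, and the EBs were treated during differentiation, so the cultures are set side by side.

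Bmi1 rose with A485 in all 4 cultures. It was 59.8 and 55.3 CPM with A485, against 20.6 and 18.95 CPM with DMSO in LSD1 KO ESCs (1.48 ± 0.08, adjusted p = 1.7e-11). In serum cells it was 48.8 and 46.9 CPM, against 21.4 and 18.8 CPM (1.17 ± 0.15, adjusted p = 8.23e-05), and in EpiLCs 49.1 and 48.5 CPM, against 27.6 and 30.1 CPM (0.65 ± 0.10, adjusted p = 5.68e-05). With A485 these 3 cultures stood between 46.9 and 59.8 CPM, above every untreated WT ESC (at most 32.0 CPM). In EBs it was 26.0 and 24.9 CPM, against 16.2 and 17.6 CPM (0.68 ± 0.13, adjusted p = 0.00224), below both WT EBs with DMSO at 44.6 and 44.3 CPM. Without either DMSO library the EB value of Bmi1 had adjusted p of 0.0284 and 0.0129, and with the 2 groups alone 0.0103.

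Jarid2 fell in ESCs, serum cells and EpiLCs and rose in EBs. It was 221 and 210 CPM with A485, against 301 and 347 CPM with DMSO in ESCs (-0.65 ± 0.08, adjusted p = 7.52e-07). In serum cells it was 183 and 159 CPM, against 361 and 311 CPM (-1.06 ± 0.16, adjusted p = 0.00178), and in EpiLCs 212 and 194 CPM, against 389 and 426 CPM (-1.12 ± 0.09, adjusted p = 8.33e-07). The serum call did not hold without the filter on low counts (adjusted p = 0.014) or without A485 library 1 or 2 or DMSO library 1 (adjusted p of 0.0108 to 0.0208). In EBs Jarid2 was 322 and 388 CPM with A485, against 174 and 199 CPM with DMSO (1.02 ± 0.13, adjusted p = 0.000103). This was 0.99 with the replicate block or with the 2 groups alone, and 0.89 without A485 library 2 and 0.92 without DMSO library 1. The direction was thus opposite to the other cultures in every one of these fits, and the size was close to 2-fold.

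**Figure D5:**
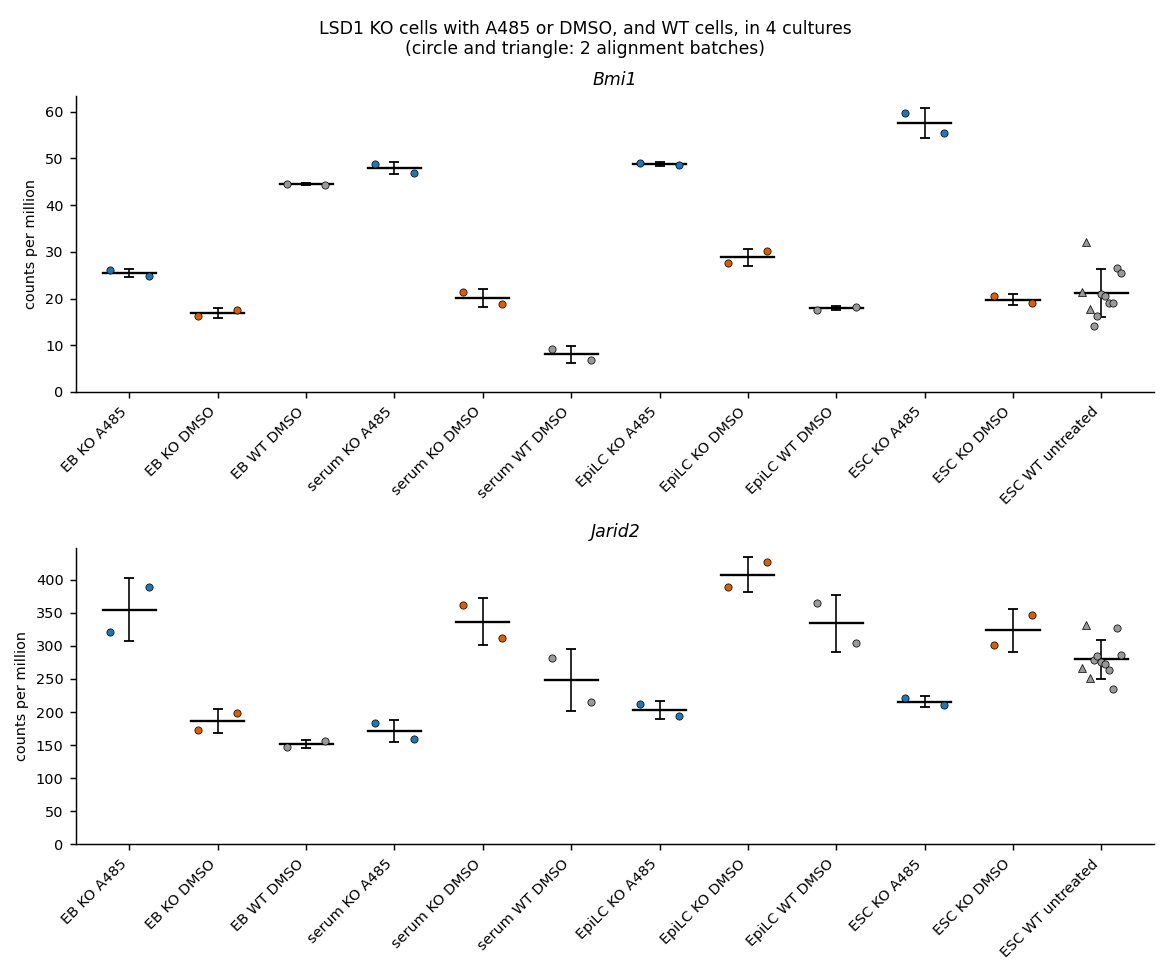
Bmi1 and Jarid2 (vertical axes, CPM from 0) in LSD1 KO cells with A485, LSD1 KO cells with DMSO and WT cells of EBs, serum cells, EpiLCs and ESCs. Points are libraries, triangles mark the second alignment batch, and lines and bars are mean and SD. Bmi1 is higher with A485 in each culture, and Jarid2 is higher with A485 in EBs (322 and 388 CPM) and lower in the other 3.

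The other PRC2 genes each moved in their own cultures. In EBs Suz12 was 368 and 385 CPM with A485, against 207 and 227 CPM with DMSO (0.89 ± 0.12, adjusted p = 0.000111), and Mtf2 333 and 316 CPM, against 178 and 180 CPM (0.95 ± 0.11, adjusted p = 4.86e-05). Suz12 did not pass in the other 3 cultures, at 0.06 in serum cells (adjusted p = 0.531), 0.06 in EpiLCs (adjusted p = 0.378) and -0.16 in ESCs (adjusted p = 0.0451). Ezh1 was 33.4 and 33.98 CPM, against 22.3 and 16.4 CPM (0.89 ± 0.16, adjusted p = 0.00113), close to the 35.3 and 36.4 CPM of WT EBs with DMSO. Without EB DMSO library 2 the adjusted p of Ezh1 was 0.0174. In ESCs Mtf2 fell by 0.48 and Eed by 0.79, and Eed stood at 67.8 and 70.1 CPM with A485, against 110.5 and 118 CPM with DMSO. Mtf2 and Eed also fell in EpiLCs, by 0.25 and 0.41, and Eed was 0.22 in EBs (adjusted p = 0.191). Ezh2 fell by 0.34 in ESCs, 0.37 in serum cells and 0.72 in EpiLCs, where it was 91.4 and 89.4 CPM, against 136.5 and 140.3 CPM, and in EBs it was -0.09 (adjusted p = 0.612). For the CBX genes, Cbx7 was 109 and 143 CPM with A485 in EBs, against 60.3 and 61.1 CPM with DMSO (1.15 ± 0.15, adjusted p = 0.000112), and 104 and 104 CPM in EpiLCs, against 136 and 134.5 CPM (-0.49 ± 0.07, adjusted p = 1.48e-05). Without A485 library 2 the EB value was 0.94. Cbx2 fell to 28.4 and 33.4 CPM with A485 in EBs, against 47.7 and 59.3 CPM with DMSO, by 0.70, and by 0.56 in EpiLCs and 0.32 in serum cells. Its EB and serum values, and the Ezh2 value in serum cells, lost the threshold without single libraries, at adjusted p of 0.0254 to 0.0807, and the serum values of Ezh2 and Cbx2 also with the 2 groups alone (adjusted p = 0.0179 and 0.0176).

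The difference of the A485 responses, EBs minus ESCs, was added after seeing the data. It cannot be told apart from the dose and the timing of treatment. In it 8 of 10 genes passed (6 higher, 2 lower) and 5 were called, against 31.9% and 21.5% of all genes. Jarid2 differed by 1.64 ± 0.20, Mtf2 by 1.41 ± 0.12, Cbx7 by 1.24 ± 0.17, Ezh1 by 1.15 ± 0.21 and Suz12 by 1.02 ± 0.12, and Ezh2 and Rnf2 did not pass. Suz12 was under 2-fold without any of 4 libraries, A485 library 2 and DMSO library 1 of the EBs and A485 library 1 and DMSO library 2 of the ESCs (0.94 to 0.99), and Ezh1 without EB DMSO library 2 (0.95). EBs with A485 had 815 and 906 CPM of the 8 naive markers, against 364 and 365.5 CPM with DMSO, and 13.5 and 14.2 CPM of the mesoderm and heart markers, against 337 and 367 CPM. In ESCs with A485 all 8 naive markers were called lower. The part of these shifts in the members' values was not tested.

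Putting LSD1 back changed none of the 10 genes past the test without the replicate block. In LSD1Res ESCs with DOX 5.04% of all genes passed and 2.37% were called, in DKO + LSD1 ESCs 1.28% and 0.332%, and in LSD1 KO ESCs without the transgene 0.0178% by either rule. In the same order 3, 1 and 1 of the 10 had an unadjusted p below 0.05 in edgeR, and 1, 1 and 0 passed with DESeq2. Bmi1 was 26.4, 29.1, 23.1 and 25.5 CPM in LSD1Res ESCs with DOX, against 20.3, 22.2, 18.4 and 20.5 CPM without DOX. Every library with DOX lay above every one without it, and the log2 fold change was 0.39 ± 0.11 (adjusted p = 0.0213). The library numbers paired these samples, and with the number as a replicate block Bmi1 (0.39, adjusted p = 0.00103), Cbx2 (0.27, adjusted p = 0.0039) and Mtf2 (0.20, adjusted p = 0.0033) passed, all under 2-fold. In LSD1 KO ESCs without the transgene Mtf2 was also higher in both libraries with DOX, at 404.6 and 453.9 CPM, against 378.5 and 341.2 CPM without DOX (0.16 ± 0.12, adjusted p = 0.886), while Bmi1 was -0.17 and Cbx2 -0.13, and the difference between the lines was not tested. Jarid2 was 565, 502, 563 and 546 CPM in DKO + LSD1 ESCs with DOX, against 450.5, 453, 421 and 412 CPM without DOX (0.31 ± 0.08, adjusted p = 0.0268), also without overlap, and with the block it passed (0.32, adjusted p = 0.00296). Suz12 was 337, 323, 390 and 461 CPM in LSD1Res ESCs with DOX, against 371, 388, 455 and 477 CPM without DOX. It was lower with DOX in each of the 4 pairs, and with the block the value was -0.13 (adjusted p = 0.025), which did not pass.

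Likeness was read across the 34 group means on log2(CPM + 1). Cbx2 ran against Suz12, Eed, Mtf2, Cbx7 and Jarid2. Its Pearson correlation was -0.84 with Suz12, -0.76 with Eed, -0.73 with Mtf2, -0.71 with Cbx7 and -0.65 with Jarid2. With the remaining genes it was weaker, at -0.29 with Ezh2, -0.11 with Ezh1, 0.11 with Rnf2 and 0.085 with Bmi1. These values describe 34 groups that share lines, cultures and batches. Among the 13770 genes with a mean of at least 1 CPM, those most like Suz12 were Ostf1 (0.95), Nmrk1 (0.95) and Calcoco2 (0.94), those most like Cbx7 Castor1 (0.95), Dppa4 (0.94), a gene of pluripotent cells, and Rbmxl2 (0.93), and those most like Cbx2 Notch2 (0.90), Cpne7 (0.90) and Foxk1 (0.90). Eed was followed by Nfatc2ip (0.94) and Dnajc21 (0.94), Mtf2 by Gemin2 (0.92), Cep55 (0.91) and Wdr76 (0.90), and Jarid2 by Pigl (0.90), Thoc6 (0.88) and C330004P14Rik (0.87). Rnf2 was followed by Zfp277 (0.87), Cept1 (0.87) and Xrn2 (0.86), and Ezh1 by Ccnt2 (0.88), Mbtps2 (0.86) and Zfp975 (0.82). Ezh2 (Pdia4, 0.78, Lsm5, 0.73, and Ndufa5, 0.72) and Bmi1 (Fam193a, 0.76, 2500004C02Rik, 0.75, and Vamp2, 0.74) had no gene as close. In the annotation of the files none of the 10 genes shared exon bases with another gene within 5000 bases. Commd3 lies beside Bmi1 on the same strand, and transcripts that run from one into the other are known, so counts of Bmi1 may hold some of them.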

How the data were processed

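RNA of the libraries was sequenced in pairs after depletion of ribosomal RNA with a strand-specific kit. Per the methods of the study the authors trimmed the reads, aligned them to mm9 with STAR 2.7.9a, removed duplicates with Picard 2.25.5 and counted reads per gene by strand. The deposited values are whole read counts per gene, not normalized, and 72.2% to 84.7% of counts between 2 and 39 were even, as when both mates of a pair are counted. In 9 libraries no read was counted on unplaced contigs, and they are treated as a second alignment batch.

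Counts were scaled by TMM and tested with edgeR 4.0.16 (quasi-likelihood, R 4.3.3) after its filter on low counts, in 1 fit per set of groups, with Benjamini-Hochberg adjustment over all genes. CPM values use total counts (17221431 to 58186717 per library, Rn45s being 8.06% to 24.9%). Alternatives were DESeq2 1.42.0, its size factors, no filter, Rn45s left out, counts halved, only the compared groups, a replicate block, an alignment batch term, WT libraries of the same batch, and each library left out. The 2 differences of A485 and of EB and serum responses were added after seeing the data. The 10 genes and all lists were chosen with earlier results of these data known. Genes named outside the 10 were up to 4 called genes of lowest adjusted p per comparison in the other Polycomb lists, the targeted genes as a check of labels and, for likeness, the 3 of highest correlation. A gene so named is also given in other comparisons, and some genes that the rule names are not reported here. Same-numbered libraries paired in the DOX comparisons of LSD1Res and DKO + LSD1, where deviations from the group means correlated at 0.585 to 0.705, a pairing read from the data. Python 3.11.15 with pandas 2.3.3, NumPy 2.4.6 and matplotlib 3.10.9 made the tables and figures.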

Additional observations from a re-analysis of the deposited data

Results flagged for a closer look

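Single libraries stood apart in 4 of the 150 groups and genes tested (chance flags about 1 in 20). The 11 WT ESC libraries and the 18 groups of 2 libraries were not part of this test. In WT ESC library 2 Eed was 176.7 CPM, against 108.2 to 139.0 CPM in the other WT ESCs. Mtf2 was 214.2 CPM in WT EB library 6, against 150.9 to 169.2 CPM in the others. Rnf2 was 144.0 CPM in MLL4KO/LSD1CI ESC library 3, against 117.1 to 121.5 CPM. Bmi1 was 29.62 CPM in DKO + LSD1 library 2 with DOX, against 22.16 to 23.17 CPM. Cbx7 was 101.6 CPM in RCOR2 KO ESC library 4, against 107.2 to 107.9 CPM.

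Responses that differed between cultures by the edgeR test of the difference itself were as follows, as EB minus ESC on the log2 scale. For LSD1 KO they were Ezh1 (-1.43), Suz12 (-0.96), Jarid2 (-0.68), Mtf2 (-0.77), Bmi1 (-2.15) and Cbx7 (1.02), and for LSD1 CI Ezh1 (-0.70) and Suz12 (-0.74). For RCOR2 KO it was Bmi1 (-0.86). For RCOR1/2 DKO they were Eed (0.53), Jarid2 (0.51), Mtf2 (0.84), Rnf2 (-0.57), Bmi1 (-1.48), Cbx7 (2.26) and Cbx2 (-1.46). For A485 in LSD1 KO cells they were Ezh1 (1.15), Eed (0.98), Suz12 (1.02), Jarid2 (1.64), Mtf2 (1.41), Bmi1 (-0.82), Cbx7 (1.24) and Cbx2 (-0.79). For LSD1 KO in EBs minus serum cells, both with DMSO, they were Ezh1 (-1.05), Rnf2 (-0.48), Bmi1 (-2.78), Cbx7 (1.20) and Cbx2 (-0.89). In fits of the 4 compared groups alone Ezh1 and Suz12 for LSD1 CI and Rnf2 for RCOR1/2 DKO did not pass (adjusted p = 0.0123, 0.0165 and 0.013 by edgeR).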

How the results depend on the processing

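Of the 121 member results that passed, 121 kept direction and threshold with DESeq2, 119 with its size factors, 117 without Rn45s, 118 with counts halved and 117 without the filter. Fewer did so with the compared groups alone (91 of 116), the alignment batch term (47 of 56), WT libraries of the same batch (15 of 19) or 1 library left out (374 of 488), and none of these turned direction. The count of called genes changed to 0 for LSD1 KO against LSD1 CI ESCs with the alignment batch term. With the compared groups alone it was 1 for A485 in EBs and 0 for LSD1 CI serum cells, and without the filter it was 1 for A485 in serum cells. With 1 library left out it ranged from 0 to 1 for MLL4 KO ESCs and for LSD1 CI serum cells, from 1 to 2 for LSD1 KO EBs against WT or LSD1 CI EBs and for A485 in serum cells, from 0 to 2 for A485 in EBs and from 1 to 3 for WT serum cells. The libraries behind these ranges were MLL4 KO 2, LSD1 KO EB 2, LSD1 CI EB 2 and 3, A485 EB 2, WT serum 2, LSD1 CI serum 2 and, for A485 in serum cells, A485 1 and 2 and DMSO 1. Cbx7 turned to 0.25 in MLL4KO/LSD1CI ESCs with the batch term and with WT libraries of the same batch, and to -0.54 in LSD1 KO against LSD1 CI ESCs with the batch term. The cause was not tested. In groups of more than 5 libraries none was left out.

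With the replicate block 97 of 121 results held, and the called count was 1 for A485 in EBs, 2 for WT EpiLCs, 4 for WT serum cells and 1 for the LSD1 KO response in EBs minus ESCs. In WT EpiLCs the 2 were Eed (-1.07) and Mtf2 (-1.32), and Cbx2, called without the block, was 0.97. Outside the paired DOX comparisons the labels do not say what the numbers share, and correlations of same-numbered deviations lay between -0.302 and 0.563. They were 0.52 to 0.563 for MLL4KO/LSD1CI and 0.329 to 0.416 for MLL4/LSD1 DKO, both against MLL4 KO ESCs. For DOX in LSD1 KO ESCs without the transgene the correlation was 0.555. The main fits of these comparisons were unpaired, and with the replicate block no member was called in them. Precision is limited by the 18 groups of 2 libraries, and no member had fewer than 295 counts in a library. Where leaving out a library left 1 in a group, that library was assumed to vary like the other groups in the fit.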

Other observations

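Other Polycomb genes were called in several mutant ESCs, all against WT ESCs and as log2 fold changes from edgeR. Scml2, a PRC1-associated protein of the germline, was called higher in RCOR1/2 DKO (4.37), MLL4/LSD1 DKO (2.505), LSD1 KO (2.23), MLL4KO/LSD1CI (1.18) and RCOR2 KO ESCs (1.00). Ezhip was called higher in RCOR1/2 DKO (4.69), LSD1 CI (1.88) and MLL4/LSD1 DKO ESCs (1.86), while LSD1 KO ESCs were at 0.54 (adjusted p = 0.217 by edgeR). Phf19, an accessory subunit of PRC2, was called lower in MLL4 KO (-3.13), MLL4/LSD1 DKO (-1.45), MLL4KO/LSD1CI (-1.30), LSD1 KO (-1.18), RCOR1/2 DKO (-1.16) and RCOR2 KO ESCs (-1.05), and in LSD1 CI ESCs it was 0.57 (adjusted p = 0.113 by edgeR). These comparisons share WT libraries. With A485, Phc1 was called lower in LSD1 KO EpiLCs (-2.65), serum cells (-2.25) and ESCs (-1.21), and in EBs it was 0.29 (adjusted p = 0.238 by edgeR).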
